A study of Mus musculus with 4 samples.

Results

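The genes of the circadian clock, with Rora and Nfil3, were examined for open chromatin in lymphoid tissue inducer (LTi) cells, which are group 3 innate lymphoid cells that start the formation of lymph nodes and Peyer's patches. The 10 genes are Rora, Nfil3, Nr1d1, Nr1d2, Arntl, Clock, Per1, Per2, Cry1 and Bhlhe40. Their accessible regions are the islands of 1 deposited DNase-seq table whose nearest protein-coding gene end, within 50 kb, belongs to one of them, and for the long gene Rora also every island inside the gene. This gave 30 islands of 16584 in the table, and each of the 10 genes had at least 1. DNase-seq reads the places where the nuclease DNase I cuts exposed DNA. The cells, Lin- CD127+ CCR6+ and negative for KLRG1, NK1.1 and NKp46, were sorted from Peyer's patches of C57BL/6 mice. There were 2 libraries from Tcf7+/+ mice (control) and 2 from Tcf7fl/fl mice with a Cre recombinase (Tcf7-KO), which acts on the floxed Tcf7, the gene of the transcription factor TCF-1. The Cre is not specific to LTi cells, so the deletion need not be restricted to them. The labels state neither the age of the mice nor whether the controls carried the Cre.

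For each island the table has a "peak" column and a "control" column of reads, called its sides here, and neither is tied by a label to a library or a genotype. The values below therefore describe where chromatin was open and how the 2 sides compare, and Tcf7-KO mice are not compared with controls. A fold is peak-side reads over control-side reads after the authors' scaling of the latter by 0.345, with an exact (Clopper-Pearson) 95% counting interval, and "reads" without a side means the peak side first and the unscaled control side second. There are no values per library, so these intervals hold counting error alone. Each listed island has at least 8 peak-side reads, and the folds use the same reads. The level of the folds is therefore not independent of how islands came to be listed. A region open in few cells and a region less open in many cells cannot be told apart in such counts.

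The clock is a feedback loop of transcription. CLOCK and BMAL1, the product of Arntl, bind E-boxes and activate the Per and Cry genes, whose proteins then inhibit them, and the same pair activates Nr1d1 and Nr1d2. Their products, the nuclear receptors REV-ERB alpha and beta, repress Arntl through ROR elements, where the receptor ROR alpha, from Rora, activates. NFIL3 represses genes with D-boxes and BHLHE40 competes at E-boxes. In innate lymphoid cells, NFIL3 and ROR alpha are known for roles in development, and REV-ERB alpha for a role in group 3 cells.

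Promoter sequences were searched for the elements by which these genes regulate each other, and those of 5 genes with a match are shown because the islands described below cover them. They are 250 bases before a RefSeq start, 5′ to 3′, from RefSeq (GRCm38.p6, the assembly of mm10), and for Arntl 30 bases after a start. Capitals mark the E-box CACGTG and the core of the ROR element AGGTCA, which reads TGACCT on the reverse strand.
Per1, chr11:69098699-69098948, plus strand: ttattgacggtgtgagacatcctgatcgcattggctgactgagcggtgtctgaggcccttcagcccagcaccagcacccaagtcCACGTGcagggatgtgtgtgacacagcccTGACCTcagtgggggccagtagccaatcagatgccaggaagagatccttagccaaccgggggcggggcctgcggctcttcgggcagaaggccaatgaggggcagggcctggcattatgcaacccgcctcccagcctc
Cry1, chr10:85185055-85185304, minus strand: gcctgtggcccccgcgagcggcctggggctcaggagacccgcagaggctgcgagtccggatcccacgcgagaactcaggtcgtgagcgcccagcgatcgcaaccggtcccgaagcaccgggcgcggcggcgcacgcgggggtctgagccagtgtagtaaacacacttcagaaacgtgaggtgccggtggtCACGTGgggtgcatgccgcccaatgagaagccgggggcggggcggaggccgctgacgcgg
Nr1d2, chr14:18239107-18239356, minus strand: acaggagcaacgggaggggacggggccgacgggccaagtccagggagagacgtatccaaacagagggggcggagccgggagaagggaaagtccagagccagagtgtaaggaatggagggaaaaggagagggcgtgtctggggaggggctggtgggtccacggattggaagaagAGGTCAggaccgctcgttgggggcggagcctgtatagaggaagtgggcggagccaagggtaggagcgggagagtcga
Nfil3, chr13:52981040-52981289, minus strand: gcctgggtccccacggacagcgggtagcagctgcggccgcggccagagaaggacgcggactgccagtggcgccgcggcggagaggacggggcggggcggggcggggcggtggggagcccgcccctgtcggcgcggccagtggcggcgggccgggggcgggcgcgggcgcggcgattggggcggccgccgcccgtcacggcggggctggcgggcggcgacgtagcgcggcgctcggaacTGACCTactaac
Arntl, chr7:113207530-113207559, plus strand: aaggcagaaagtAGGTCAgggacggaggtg

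The E-box was found in the promoters of Cry1 and Per1, 2 of the 8 genes in the promoter table, at positions -60 and -166 from the start. It lay in 2 of the 12 windows of these genes, beside 7.15% of all 32851 promoter windows of 300 bases. The ROR core AGGTCA, on either strand, was found at 5 of the 8 genes (Arntl, Clock, Nfil3, Nr1d2 and Per1), and on the forward strand alone at 2 of them. By window, it lay in 5 of the 12, where 16.3% of all windows held it. The Clock match, at position -119 of 1 of its 3 starts, is not shown. The longer form TAGGTCA after any 3 bases, which contains that core, matched at Arntl (AAGTAGGTCA, position 28 after a start) and at Nfil3 (TGACCTACTA on the reverse strand, position -12). That is 2 of the 12 windows, beside 2.58% of all windows. The D-box TTANGTAA, the cAMP response element TGACGTCA and the TCF/LEF motifs CTTTGAT and CTTTGAA, each on both strands, had no match in the 12 windows of the 8 genes, where 2.32%, 1.79%, 3.73% and 5.14% of all windows held them. These are matches of letters in short windows and not binding sites. The windows were rich in G and C, from 47.0% to 81.7% with a median of 64.0%, beside a median of 52.7% over all windows, and 11 of the 12 lay above it. Nfil3 had the highest G and C content of the 12 and 54 CpG pairs, beside a median of 7 over all windows.

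At 7 of the 8 genes an island covered a RefSeq promoter window, and Rora was the exception. Of the 17492 protein-coding genes with a window, 8190 (46.8%) had a promoter covered by an island. The 7 promoter islands held a median of 57 peak-side reads (33 to 104), against 14 (8 to 60) in the 15 other islands of the 8 genes. The split follows the windows alone. The 15 include islands at a 5′ gene end without a window, at Per1 (60 peak-side reads) and Nfil3 (13). Their pooled folds were 2.01 (1.78 to 2.27) and 2.23 (1.91 to 2.60), so the read counts of promoter islands were higher while the folds overlapped. Bhlhe40 and Per2 have no window in the promoter table, and their islands are described by gene ends.

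In the authors' deposited table, 27 of the 30 islands (90.0%) had a false discovery rate (FDR) under 0.05, the threshold for calling an island here, as did 82.3% of all islands, so the share lay close to that of the table. The p-value behind this FDR treats the scaled control-side reads as known without error, whereas the counting intervals include their error. An island can therefore be called while its interval reaches below 1, as happened at the start of Cry1. The pooled fold of the 30 islands was 2.02 (1.86 to 2.19, from 982 and 1412 reads), and their median fold of 2.10 stood beside 2.01 for all islands. The fold was over 1 in 29 of the 30 and in 98.3% of all islands. With a scaling that equates the summed reads of both sides over the table, every fold was 1.91 times lower, 21 of the 30 folds and 55.7% of all folds were over 1, and 2 of the 30 islands were called, as were 9.19% of all. Under the authors' scaling, 22 of the 30 had an FDR under 0.01 in the authors' deposited table (64.2% of all islands) and 18 had both an FDR under 0.05 and a fold over 2 (50.4% of all). The order of the folds does not depend on this scaling, but their level does.

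**Figure D1:**
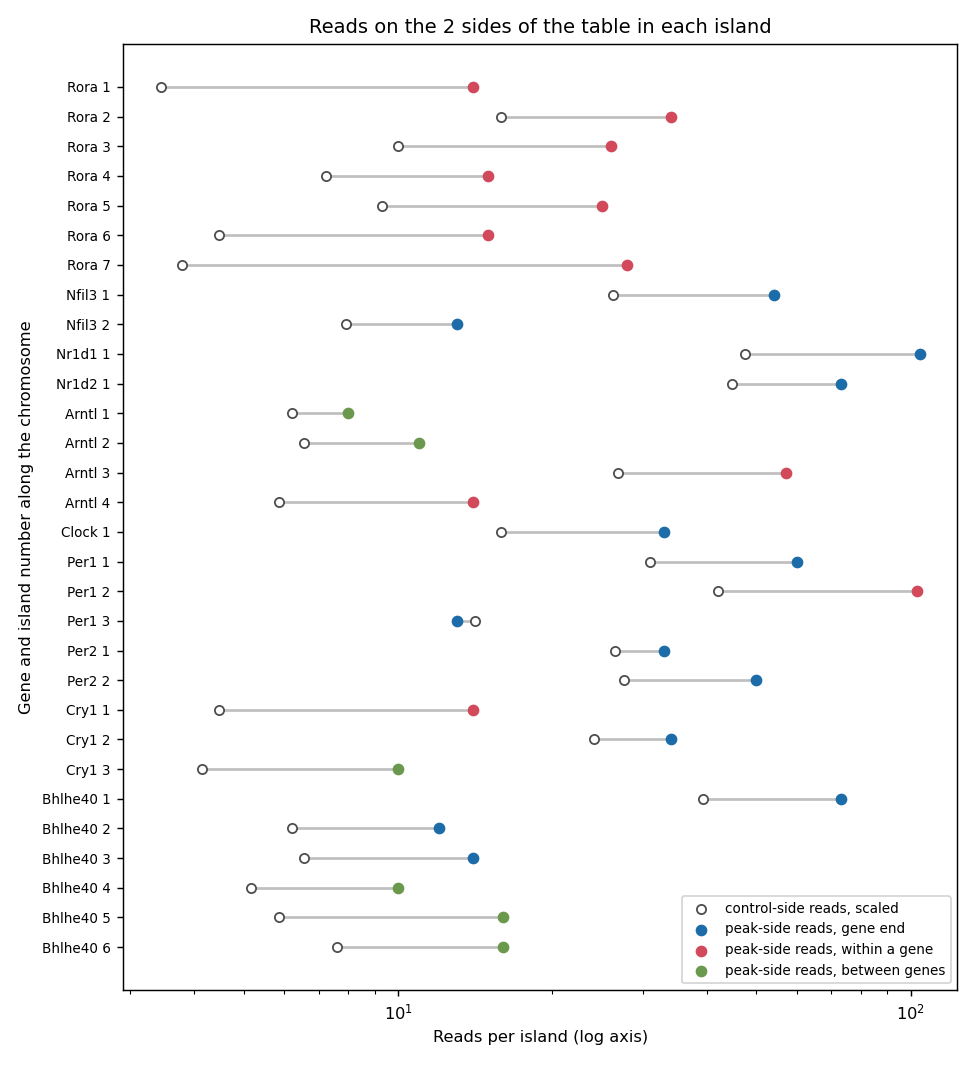
Reads in each of the 30 islands on a log axis, by gene and numbered along the chromosome. Filled points are peak-side reads, coloured by place (gene end means within 1 kb of one), and open points are scaled control-side reads. The most reads lay in Nr1d1 (104) and in the second Per1 island (103), and the third Per1 island is the single one where the open point lies higher.

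The activators Arntl and Clock each had 1 island over their RefSeq promoter windows. These held 57 and 33 peak-side reads, beside a median of 18 over all islands. Arntl (chromosome 7, 113178471 to 113314126) had 4 islands with 90 and 132 reads. The island at 113205201 to 113208800 held 57 reads against 78, for a fold of 2.12 (1.48 to 3.02), covered both RefSeq promoter windows of the gene and contained the ROR element match shown above. It lay 26.7 kb from the outer end of the gene, so it counts as within the gene although it holds the starts of these windows. The 5′ end of the gene itself, at 113178471, had no island. Of the other Arntl islands, one further into the gene (113293201 to 113296000) had 14 reads against 17, for a fold of 2.39 (1.09 to 5.15). The islands at 113143601 to 113144200 and 113145801 to 113149000, before the gene, had 8 and 18 reads (fold 1.29, 0.485 to 3.12) and 11 and 19 reads (fold 1.68, 0.722 to 3.71). Both intervals reach below 1, and the former was not called in the authors' deposited table. A further island inside Arntl, 61.7 kb from the nearest gene end and so outside the rule, had 15 reads against 23, for a fold of 1.89 (0.918 to 3.78). Clock (chromosome 5, 76209868 to 76305603) had a single island, at 76303201 to 76305800, with 33 reads against 46, for a fold of 2.08 (1.29 to 3.33), which covered its 3 promoter windows. No other island was assigned to Clock over its 95.7 kb.

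The repressors Per1, Per2 and Cry1 differed in how their islands lay. Per1 (chromosome 11, 69095108 to 69109965) held the most reads of the 10 genes, 176 and 253 over 3 islands. The island at 69096801 to 69100800 covered both promoter windows, with its E-box, and had 103 reads against 122, for a fold of 2.45 (1.87 to 3.21), and 99.8% of all islands had fewer peak-side reads. A narrower island over the outer gene end (69094401 to 69095600) had 60 and 90 reads, or 50 peak-side reads per kb beside a median of 10.6 per kb over all islands, and a fold of 1.93 (1.37 to 2.71). The island at the other end of Per1 (69108601 to 69111800) had 13 reads against 41, for a fold of 0.920 (0.452 to 1.75), the lowest of the 30. It was not called in the authors' deposited table, and its interval did not overlap that of the promoter island in the same short gene.

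Per2 (chromosome 1, 91415977 to 91459351) had 1 island at each end. The narrow one at 91459201 to 91460000 had 50 and 80 reads in 0.8 kb, which is 62.5 reads per kb and the highest density of the 30 islands, and a fold of 1.81 (1.25 to 2.61). The one at 91411801 to 91416200 had 33 reads against 77, for a fold of 1.24 (0.801 to 1.89), was not called in the authors' deposited table, and touches an end of the neighbouring gene Hes6 as well. Per2 had the lowest pooled fold of the 10 genes, 1.53 (1.16 to 2.01).

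Cry1 (chromosome 10, 85131700 to 85185054) had 3 islands, each called by the authors' deposited FDR table. Over its start, an island (85183401 to 85185600) that holds the E-box had 34 reads against 70, for a fold of 1.41 (0.907 to 2.15). Islands within the gene (85151601 to 85154600) and 35.9 kb beyond it (85221001 to 85221600) had fewer reads, 14 and 13 and 10 and 12, and folds of 3.12 (1.36 to 7.22) and 2.42 (0.935 to 6.10). The 3 intervals overlap. The pooled fold of Cry1 was 1.77 (1.25 to 2.48), and 2.78 without the island over the start.

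**Figure D2:**
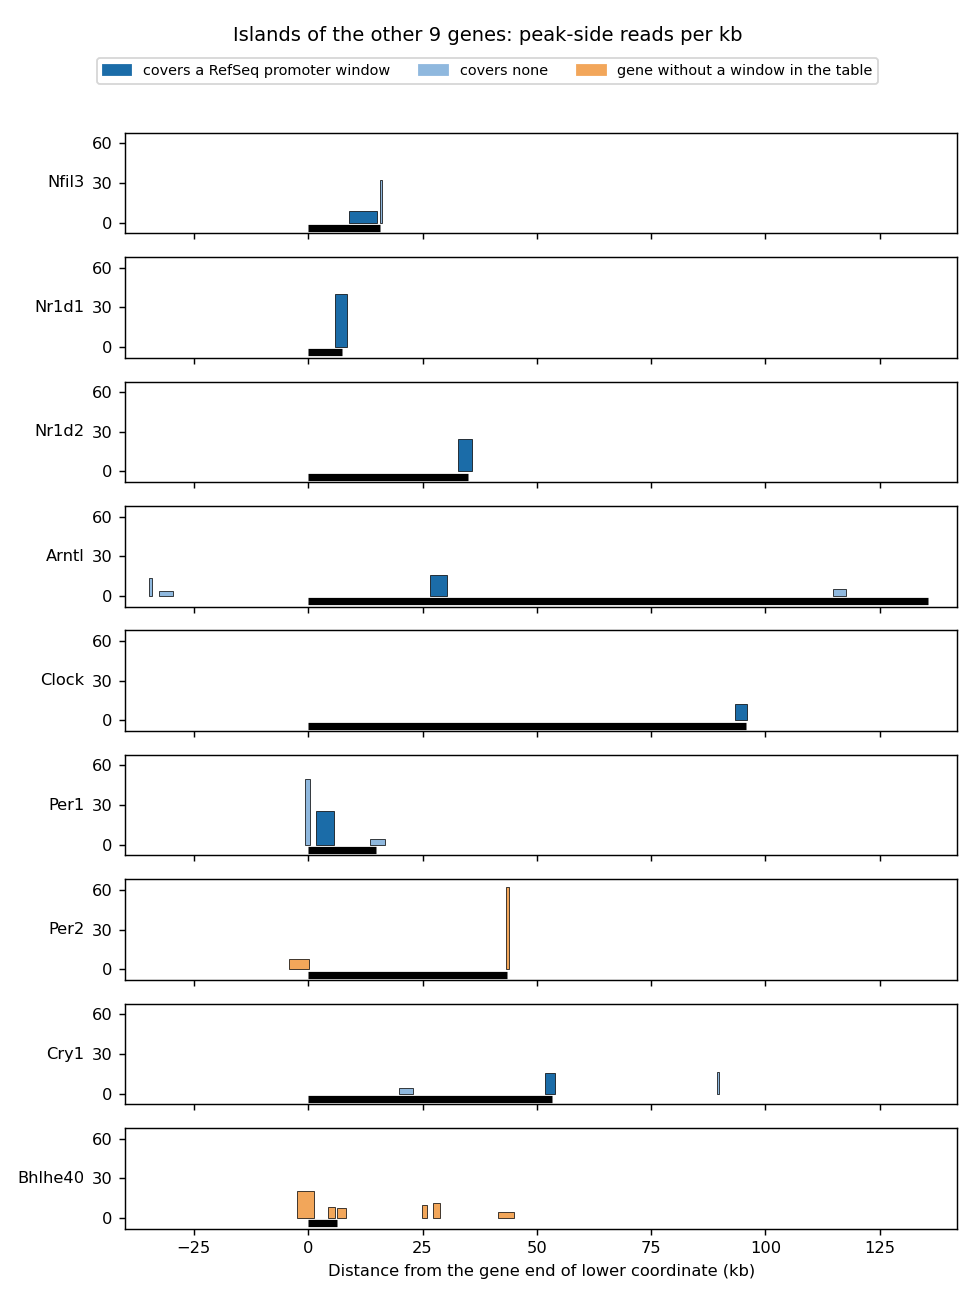
Peak-side reads per kb along the 9 genes other than Rora, against distance in kb from the gene end of lower coordinate, with the gene as a black bar. Colours mark islands that cover a RefSeq promoter window. Per2 and Per1 have narrow islands of 62.5 and 50 reads per kb over a gene end, and the promoter island of Arntl lies inside its bar.

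Nr1d1 and Nr1d2, which encode REV-ERB alpha and beta, had 1 island each, over the promoter. That of Nr1d1 (chromosome 11, 98773801 to 98776400) had 104 reads against 138, for a fold of 2.19 (1.68 to 2.84). It held the most peak-side reads of the 30, and 99.8% of all islands had fewer. That of Nr1d2 (chromosome 14, 18236801 to 18239800), over the ROR core at position -77, had 73 reads against 130, for a fold of 1.63 (1.21 to 2.19). Per kb, the peak-side reads were 40.0 in Nr1d1 and 24.3 in Nr1d2. A second island inside Nr1d1 (98769401 to 98773200) had 23 reads against 36, for a fold of 1.85 (1.05 to 3.21), but lies nearest to an end of Thra, the thyroid hormone receptor gene that overlaps Nr1d1, and is not counted among the 30.

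The islands of Rora all lay inside the gene and far from its start. Rora (chromosome 9, 68653404 to 69388246) spans 735 kb, and 7 islands with 157 and 157 reads covered 2.83% of it. Its single RefSeq promoter window had no island, and the nearest island lay 380 kb into the gene. The table lists islands from 8 peak-side reads upward, so openness below that level is not seen in it. Of the 7 islands, 6 lay in a stretch of 52.0 kb (69289401 to 69341400), which is 7.08% of the gene and ends 46.8 kb before its 3′ end. Rora is known to have alternative promoters, and whether any island marks one was not tested.

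Along that stretch, the island at 69289401 to 69292200 had the most reads of the gene, 34 and 46, and a fold of 2.14 (1.33 to 3.41). The next, at 69296001 to 69302400, was the widest of the 30 at 6.4 kb and had 26 reads against 29, for a fold of 2.60 (1.47 to 4.57). The island at 69304401 to 69306600 had 15 reads against 21, for a fold of 2.07 (0.994 to 4.22). At 69319601 to 69322600 there were 25 reads against 27, for a fold of 2.69 (1.49 to 4.81), and at 69335601 to 69337600 there were 15 reads against 13, for a fold of 3.35 (1.49 to 7.64). The last island, at 69339201 to 69341400, had 28 reads and 11 reads, a fold of 7.38 (3.56 to 16.4) and an FDR of 9.29e-14 in the authors' deposited table. Its fold was the highest of the 30, and 98.6% of all islands had a lower one. Its interval overlaps those of 5 of the other 6 Rora islands, the exception being the first of the stretch. The island that stands alone earlier in the gene (69034001 to 69036200) had 14 reads against 10, for a fold of 4.06 (1.68 to 10.2). The intervals of 6 of the 7 islands include the median fold of the table, 2.01, and that of the last lies above it.

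The last Rora island lies 46.8 kb from the gene end and is the nearest to the limit of 50 kb on its inner side. The one before it, at 50.6 kb, lies just past the limit and belongs to Rora through the gene body, as do 6 of the 7. Each of the 7 was called by its FDR in the authors' deposited table. The pooled fold of Rora was 2.90 (2.31 to 3.64), the highest of the 10 genes, and 2.56 (2.01 to 3.27) without the island of fold 7.38. All 7 of its islands lay within the gene. Over the whole table the median fold of such islands was 2.34, beside 1.86 at gene ends. The part of place in this rank was not tested. Of 45 pairs of genes, the intervals of pooled folds did not overlap in 2, Rora with Nr1d2 and Rora with Per2, and each gene's interval overlapped that of its neighbour in the order. With the scaling to equal summed reads the pooled fold of Rora was 1.52, and the called islands among the 30 were the last and the earliest of Rora.

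**Figure D3:**
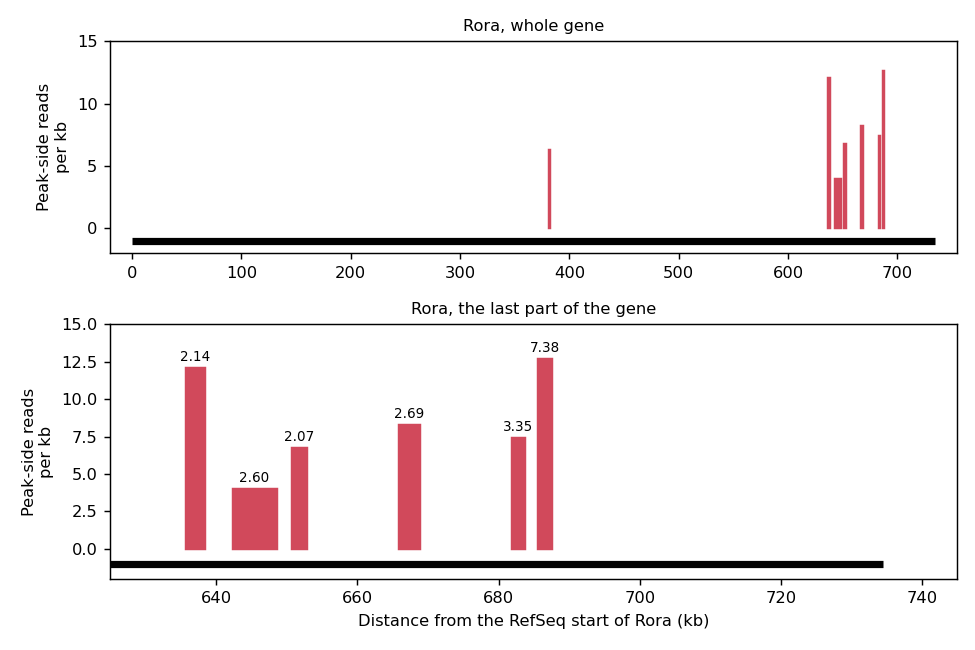
Peak-side reads per kb in the 7 islands of Rora against distance in kb from its RefSeq start, over the whole gene (upper panel) and its last part (lower panel, with the fold above each bar). The black bar is the gene. The first 380 kb hold no island, and 6 of the 7 bars stand between 636 and 688 kb.

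Long genes can hold more islands by length alone, so Rora was set beside the 392 protein-coding genes, itself included, of 0.5 to 2 times its length. Of these, 222 (56.6%) held no island and the median was 0. Rora, with 7, was exceeded by 3 of them, Arhgap26 (9), Maml3 (8) and Rad51b (8). Foxn3 and Foxp1, a pair of forkhead transcription factor genes, also held 7, and Msi2, Myo16, Pde4d and Zfhx3 held 6 each. These counts are not adjusted for length within that range. Per 100 kb of gene, Rora held 0.953 islands. Maml3 (1.91), Foxn3 (1.87), Msi2 (1.58), Rad51b (1.45), Myo16 (1.25), Foxp1 (1.17) and Arhgap26 (1.16) held more, and Zfhx3 (0.879) and Pde4d (0.461) held fewer. Fry (1.32), with 5 islands, is among others of the 392 that held more per 100 kb. With islands of at least 20 peak-side reads, Rora held 4 and none of the 392 held more, a setting chosen after seeing the data. Each of the 6 clustered Rora islands had 5 other islands within 50 kb, centre to centre. Among all islands lying within genes, away from gene ends, 15.2% had 5 or more and the median was 2.

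**Figure D4:**
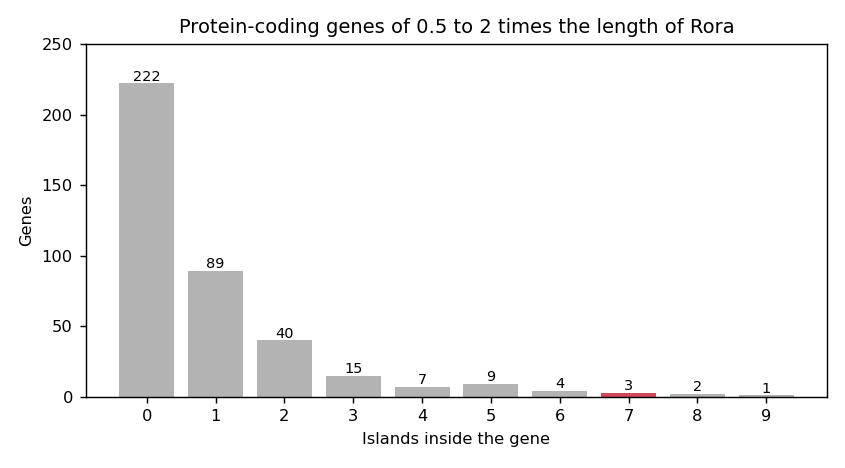
Number of protein-coding genes (vertical axis) by the number of islands inside the gene (horizontal axis), for the 392 genes of 0.5 to 2 times the length of Rora. The class of Rora, in red, holds 3 genes, and 222 genes hold no island.

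Nfil3 (chromosome 13, 52967209 to 52982878), which encodes a bZIP repressor, had 2 islands 0.8 kb apart at its start. The wide one (52976201 to 52982200) covered the promoter window with the ROR element match and had 54 reads against 76, for a fold of 2.06 (1.43 to 2.96). The narrow one (52983001 to 52983400), just outside the gene, had 13 reads against 23, for a fold of 1.64 (0.763 to 3.37). Per kb the latter held more peak-side reads, 32.5 against 9.0. The pooled fold of Nfil3 was 1.96 (1.42 to 2.70), with an interval that overlaps those of the other 9 genes.

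Bhlhe40 (chromosome 6, 108660629 to 108666925), which encodes a basic helix-loop-helix repressor, is the shortest of the 10 genes at 6.30 kb and had 6 islands, second in number to Rora. The one over its first end (108658201 to 108661800) had 73 reads against 114, for a fold of 1.86 (1.37 to 2.51). Around the other end, islands at 108665001 to 108666400 and 108667001 to 108668800 had 12 and 18 and 14 and 19 reads, with folds of 1.93 (0.850 to 4.24) and 2.14 (0.992 to 4.50). The remaining 3 lay between genes at 18.7, 21.1 and 35.3 kb past the gene and held 42 and 54 reads together. They were at 108685601 to 108686600 (fold 1.93, 0.777 to 4.60), 108688001 to 108689400 (2.73, 1.29 to 5.75) and 108702201 to 108705600 (2.11, 1.04 to 4.20). All 6 were called in the authors' deposited table, and their intervals overlap, with a pooled fold of 1.99 (1.60 to 2.48).

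**Figure D5:**
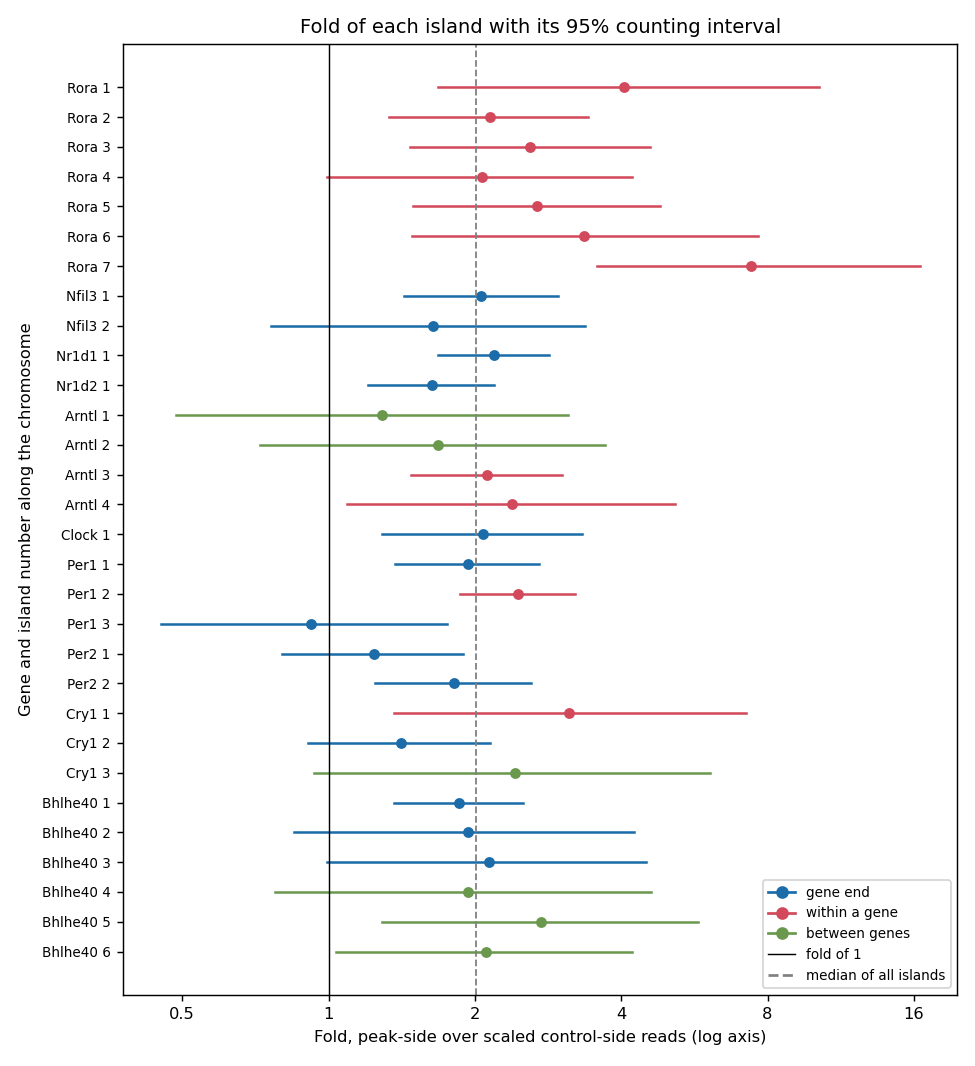
Fold of each of the 30 islands (point) with its 95% counting interval (line) on a log axis, coloured by place. The solid line marks a fold of 1 and the dashed line the median of all islands, 2.01. The last Rora island (7.38) has a lower bound of 3.56, and 11 of the 30 intervals reach below 1.

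By place, 13 of the 30 islands (43.3%) lay within 1 kb of a gene end, 11 (36.7%) elsewhere within a gene and 6 (20.0%) between genes, beside 55.7%, 24.3% and 20.0% of all islands. All 7 Rora islands and none of the 6 Bhlhe40 islands were among the 11. The median folds were 1.86, 2.60 and 2.02 for the members and 1.86, 2.34 and 2.32 for all islands of these places.

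The wider clock was also mostly represented. Of 22 core clock genes, the 10 above included, 19 had an island under the rule of 50 kb alone. The 10 and the list were chosen with earlier results of these data known. Of the 12 genes that are not among the 10, 9 had an island, beside 53.9% of all protein-coding genes (an island at equal distance from several genes counts for each). Rorb, Bhlhe41 and Arntl2 had none. Of the 39 islands of this list, which then holds 1 of Rora's, 28 (71.8%) were called in the authors' deposited table, against 82.3% of all islands, and the median fold was 1.86, against 2.01 over all islands. Among the 12 genes that are not members, Dbp, Tef and Cry2 were among the 4 with the most peak-side reads. Dbp and Tef, bZIP activators at D-boxes, had 89 and 156 reads (fold 1.65, 1.26 to 2.16) and 82 and 138 reads (pooled fold 1.72, 1.30 to 2.28), and Cry2, the paralog of Cry1, had 73 and 103 reads over 3 islands (pooled fold 2.06, 1.5 to 2.80). Of 20 modifiers of the clock (kinases, ubiquitin ligases, corepressors and metabolic regulators), 19 had an island, and 28 of their 34 islands (82.4%) were called there, a share close to the 82.3% of all islands, with a median fold of 1.88. Among the 4 with the most reads were the kinase gene Gsk3b (85 and 145, pooled fold 1.70, 1.29 to 2.24), the ubiquitin ligase gene Btrc (67 and 87, 2.23, 1.60 to 3.11) and Nampt, an enzyme of NAD synthesis (56 and 107, 1.52, 1.08 to 2.12).

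As a check of the labelled cell type, 15 of 16 LTi marker genes had an island, among them Kit, Il7r and Tnfsf11, and Ccr6, a marker of the sort, had none. Among markers of other cells, 1 of 10 T cell, 5 of 10 B cell, 5 of 10 myeloid, 3 of 10 type 1 innate lymphoid and NK, 5 of 8 group 2 innate lymphoid and 7 of 10 epithelial and stromal genes had one. Cd3e, Ms4a1, Csf1r, Tbx21 and Ncr1 were among those without, while Cd3d, Cd79b, Pax5, Ebf1, Spi1, Flt3, Gata3, Il1rl1, Pecam1 and Pdgfrb each had at least 1 called island. Of the markers that the sort was negative for, Ncr1 (NKp46) thus had none, but the other genes did. Klrg1 had 2 islands, both called (34 and 33 reads), and Klrb1c (NK1.1) had 3, of which 1 was called (86 and 146 reads). None of these lay within 1 kb of a gene end. The part of other cells in the islands of the clock genes was not tested.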

How the data were processed

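The authors deposited 1 table for 4 DNase-seq libraries (2 control, 2 Tcf7-KO), each made from 300 sorted cells and a 5 minute digestion with 0.3 U of nuclease, per the labels' protocols. Bowtie2 2.4.2, SICER 2.0 and build mm10 are named in the submitters' processing notes. SICER joins neighbouring enriched windows into broad islands. Per the file headers, each island has 2 read counts, a p-value, a fold and an FDR. The read counts were deposited without normalization. The deposited fold, a ratio, uses 1 factor of 0.345 for the control side, with 0.25 reads in place of 0, and the deposited p-value is a Poisson upper tail, adjusted as an FDR (q-value) over the table. The fold and the p-value were recomputed here from the 2 counts with that factor, which was itself taken from the deposited folds. The FDR was recomputed from the deposited p-values. The largest differences were 6.86e-10 (relative, fold), 4.98e-08 (p) and 0.000279 (FDR). Pooling of replicates is not given in the sources used here, nor are library totals. The islands held 425134 peak-side and 645087 control-side reads, with medians of 18 and 27 per island.

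Genes (21887 protein-coding) and promoter windows (250 bases before to 50 after a start) came from RefSeq, GRCm38.p6. All 10 members matched the gene table and 8 the promoter table. In 1891 of 1891 overlapping windows on opposite strands the sequences matched as reverse complements, so they run in transcript direction. Islands were assigned to the nearest gene end within 50 kb, and coordinates are 1-based. The named islands are all 30. In each list of other clock genes the 4 with most peak-side reads were to be named, and 1 of them in each list is not reported here. The members and lists were chosen with earlier results of these data known. Python 3.11.15 with SciPy 1.17.1 was used, and the steps were tested on simulated data. No test between genotypes was possible with these columns, and since the protocol names no molecular identifiers, reads may repeat a molecule. Other scalings, windows, thresholds and read minimums were tried.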

Additional observations from a re-analysis of the deposited data

How the results depend on the processing

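No paired analysis was possible because no column names a replicate, and leave-one-out fits and the comparison of Tcf7-KO with control libraries were not run, since no column is tied to a library. With both sides scaled to equal summed reads over the table, the members' pooled fold was 1.06 in place of 2.02, their median fold 1.10 in place of 2.10 and their called islands 2 in place of 27. That scaling fixes the table's own pooled fold at 1, which by itself lowers every fold. Under it the pooled folds of Nr1d2, Per2 and Cry1 turned to the other side of 1 (0.852, 0.802 and 0.926), and those of the other 7 genes lay between 1.03 and 1.52. With at least 20 peak-side reads, 15 of the 30 islands remained, 14 of them called in the authors' deposited table, and each of the 10 genes kept at least 1. Under windows of 10 kb, gene ends alone, gene bodies with 1 kb around them, or without Rora, the number of islands ran from 21 to 26, the pooled fold from 1.91 to 2.01 and the median fold from 1.93 to 2.08. With the window of 10 kb, 9 of the 10 genes kept an island, and Arntl had none. An FDR under 0.01 left 22 called islands, and 18 had an FDR under 0.05 with a fold over 2. Without the island of most reads, the pooled fold of Per1 was 1.62 in place of 2.02 and that of Cry1 2.78 in place of 1.77. Promoters of 7 members were covered also with a wider reach around the windows, a setting added after seeing the data. With at least 20 reads, 0 genes of similar length held more islands than Rora, in place of 3. Depth limits the folds: the median island of the 30 had an upper bound 3.97 times its lower bound.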

Other observations

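Several clock genes share their neighbourhood with islands of other genes. Within 50 kb of Per1 there were 8 islands outside the 30, with 225 peak-side reads, assigned to Borcs6, Tmem107, Hes7 and Aloxe3. Within 50 kb of Nr1d1 there were 6, with 207 peak-side reads, assigned to Med24, Thra, Msl1 and Casc3. Around Bhlhe40 there were 0.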
